A study of Homo sapiens with 6 samples.

Results

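The transcription factors and regulators of the ATF4 network were followed as 10 genes in LX-2 cells: ATF4, ATF5, ATF3, DDIT3, CEBPB, CEBPG, TRIB3, NUPR1, PPP1R15A and CHAC1. They were taken by gene name from a table of 33900 genes, as factors of the integrated stress response and the genes that feed back on it, and all 10 passed the filter for testing (mean FPKM of at least 0.5). They were selected on their measured difference between rhSema3C and PBS, ATF5 because it was lower while others were higher. Their differences are therefore given as a description, without a test.

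The LX-2 line derives from human hepatic stellate cells, which store vitamin A in the healthy liver and lay down collagen once activated. The cells, labelled WT and kept in DMEM with 10% fetal bovine serum, received recombinant human Sema3C (rhSema3C) at 300 ng/ml or PBS for 48 h, with 3 samples in each group, to ask how the stellate cells respond to this secreted protein. The model is 1 cell line at 1 dose and 1 time, with PBS as the control. The labels number the replicates as biological, but do not say whether they came from separate cultures, so an error or p-value given here measures the spread between these samples.

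Total counts on genes ranged from 68267808 to 89245585 per sample, and mitochondrial genes took 4.75 to 5.42% of them in the PBS samples and 3.73 to 3.93% in the rhSema3C samples. Of 15 stellate cell markers, 10 had a mean FPKM of at least 1, among them VIM, TIMP1, SPARC and COL1A1, while COL1A2, DES, DCN and LRAT were at or near 0 and RELN was below 1. The summed FPKM of the 15 markers was 1524 to 1575 in the PBS samples and 1207 to 1274 in the rhSema3C samples. Of the markers of other cells, 1 of 5 for hepatocytes (SERPINA1), 0 of 4 for endothelial cells, 1 of 4 for leukocytes (CD14) and 2 of 5 for epithelial cells (KRT7 and SOX9) reached an FPKM of 1, and ALB, PECAM1, PTPRC and EPCAM were at or near 0. TTR, counted among the 5 hepatocyte markers, was absent from the genes measured. In bulk RNA, fewer cells of a kind and less RNA per cell cannot be told apart. Most of the lower sum was VIM (mean FPKM 1036 in PBS and 834.5 with rhSema3C). TIMP1 (229.9 and 183.7), SPARC (113.8 and 100.8), COL1A1 (96.0 and 60.1), THY1 (24.4 and 13.4), COL3A1 (22.68 and 18.95) and ACTA2 (14.3 and 10.4) were lower as well. PDGFRB (4.69 and 5.38), LUM (1.19 and 1.40) and HAND2 (0.978 and 1.60) were higher with rhSema3C. The summed FPKM of the leukocyte markers was 4.78 to 5.77 in PBS and 3.11 to 3.59 with rhSema3C, and that of the epithelial markers 12.4 to 14.7 and 8.60 to 9.32. The sums of the other sets were higher with rhSema3C. The hepatocyte markers had 2.65 to 3.15 in PBS and 3.52 to 4.16 with rhSema3C, and the endothelial markers 0.161 to 0.183 and 0.591 to 0.875. The markers are compared on FPKM, which summed over all genes to 288169 to 297339 in PBS and 265983 to 268533 with rhSema3C. Small marker differences can therefore depend on the scaling. The part of these marker differences in the results was not tested.

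The integrated stress response is switched on by kinases that phosphorylate eIF2 alpha, each answering to a different stress, such as unfolded proteins in the endoplasmic reticulum, amino acid shortage or lack of heme. Phosphorylated eIF2 alpha slows translation of most mRNAs but favours a few with short open reading frames upstream of their start codon, ATF4 first among them. ATF4 is a bZIP transcription factor, which binds DNA as a dimer, often with a C/EBP protein, and turns on genes of amino acid supply together with factors and regulators that extend or end the response. The RNA level measured here is not the protein level, which for ATF4 is set largely by translation.

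The promoter and leader sequences of the genes are shown first, since C/EBP-ATF elements and upstream ATGs are what the network is known for. RefSeq gave promoter windows on GRCh38.p14, from 250 bases before to 50 bases after each transcription start, for 9 of the 10 genes, with 18 windows in all, and NUPR1 was not among them. The C/EBP-ATF element, searched on both strands as TGATGNAA, lay in a window of 3 of the 9 genes, ATF3, CHAC1 and CEBPG. Over all promoters of that length, 3.62% of 35116 windows held it, and it was found in 2.65% of the genes tested here. The 35116 windows belong to 27305 genes, fewer windows per gene than the 18 of these 9 genes. The shares per gene are not adjusted for this. The stretches are printed with the element in capitals, the first as the reverse complement of the letters searched, to show their place, at -209, -42 and -191 from the start, and their free base, which is the same in CHAC1 and CEBPG and differs in ATF3. The starts used for CHAC1, CEBPG and ATF3 lie inside the gene spans given below. The printed stretches of CHAC1 and CEBPG lie inside them too, and that of ATF3 ends just before its span. The CHAC1 stretch also touches an annotated exon.
CHAC1, chr15:40953251-40953280, plus strand: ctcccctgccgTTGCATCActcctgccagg
CEBPG, chr19:33373896-33374112, plus strand: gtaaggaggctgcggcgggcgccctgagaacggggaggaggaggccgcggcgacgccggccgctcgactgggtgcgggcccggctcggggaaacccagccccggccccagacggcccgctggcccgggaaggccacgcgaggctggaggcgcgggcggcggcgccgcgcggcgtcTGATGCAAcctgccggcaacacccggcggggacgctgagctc
ATF3, chr1:212565157-212565333, plus strand: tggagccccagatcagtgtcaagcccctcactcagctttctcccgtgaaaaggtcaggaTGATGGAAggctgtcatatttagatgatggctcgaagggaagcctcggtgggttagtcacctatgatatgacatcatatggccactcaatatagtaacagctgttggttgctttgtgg

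A full cyclic AMP response element, searched as TGACGTCA, which reads the same on both strands, was found in 1 member, PPP1R15A, at -58 from the start. It was present in 1.85% of windows and in 3.91% of the genes tested. It is printed because PPP1R15A differed least in size from PBS among the members whose groups did not overlap.
PPP1R15A, chr19:48872171-48872391, plus strand: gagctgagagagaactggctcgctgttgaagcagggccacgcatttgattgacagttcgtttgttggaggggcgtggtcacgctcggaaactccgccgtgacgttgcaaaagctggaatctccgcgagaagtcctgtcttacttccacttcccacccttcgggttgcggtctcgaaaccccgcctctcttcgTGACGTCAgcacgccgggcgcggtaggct

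An AP-1 element, searched as TGAGTCA on both strands and present in 4.95% of windows and 4.91% of the genes tested, was found in ATF5 and DDIT3, in both as its reverse complement. These genes differed in direction, ATF5 lower and DDIT3 higher with rhSema3C. The 30 bases around each are printed on the strand of the gene. Both stretches lie inside the gene span given below and touch an annotated exon.
ATF5, chr19:49928707-49928736, plus strand: ggagagtgctgTGACTCAtgctggactcta
DDIT3, chr12:57520735-57520764, minus strand: gcgcgcgcaTGACTCAcccacctcctccgt
The short CCAAT box was in 5 of the 9 genes with a window (ATF3, DDIT3, CHAC1, CEBPB and CEBPG) and in 43.5% of the genes tested. None of the 4 motifs contains another. A match describes the letters of the window only.

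Leaders upstream of the start codon were read from the principal transcripts of the GENCODE annotation. ATF4 had 3 principal transcripts with leaders of 280 to 882 bases and 3 to 7 upstream ATG triplets, and ATF5 had 2 with leaders of 377 to 582 bases and 2 to 6 triplets. In ATF3, ATF4 and ATF5, every principal transcript had an upstream ATG whose frame ran past the start codon without being in frame with it, which held for 14.6% of 11603 coding genes tested. CEBPG (3 to 5 triplets), DDIT3 (2 to 3), TRIB3 (3), NUPR1 (2) and PPP1R15A (2) also had upstream ATGs, so that 8 of the 10 genes had at least 1 in every principal transcript, beside 47.4% of the coding genes. CEBPB, with a leader of 300 bases, and CHAC1, with a leader of 20 bases, had none.

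The 10 genes were expressed over a wide range in PBS. FPKM, the authors' fragment count set against transcript length and library size, is used for levels between genes, and CPM, the counts scaled to a common library size after TMM normalisation, for the same gene between samples. PPP1R15A was highest in PBS, with an FPKM of 152.3 ± 2.78 (SD, n = 3), followed by ATF4 with 106.8 ± 1.30. TRIB3 (21.9 ± 0.305), DDIT3 (17.1 ± 1.64), CEBPB (16.8 ± 0.377) and ATF5 (15.03 ± 0.723) formed the middle, where the ranges of DDIT3 and CEBPB overlapped. CHAC1 (8.42 ± 0.595) and CEBPG (8.05 ± 0.611) overlapped each other, and ATF3 (2.05 ± 0.211) and NUPR1 (0.908 ± 0.161) were lowest.

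With rhSema3C the order changed. ATF4 came first with an FPKM of 223.8 ± 4.18, ahead of PPP1R15A with 144.0 ± 3.58, and TRIB3 reached 111.1 ± 1.74. DDIT3 (63.0 ± 2.62), CEBPG (32.3 ± 0.181), CHAC1 (28.7 ± 1.44) and CEBPB (20.7 ± 3.07) followed. ATF5, NUPR1 and ATF3 were lowest, with 5.74 ± 0.644, 4.46 ± 0.311 and 4.41 ± 0.289, and the ranges of NUPR1 and ATF3 overlapped. Summed over the 10 genes, the FPKM was 347.6 to 350.5 in the PBS samples and 632.8 to 642.7 in the rhSema3C samples, and ATF4 made up 30.6% of the sum in PBS and 35.1% with rhSema3C.

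**Figure D1:**
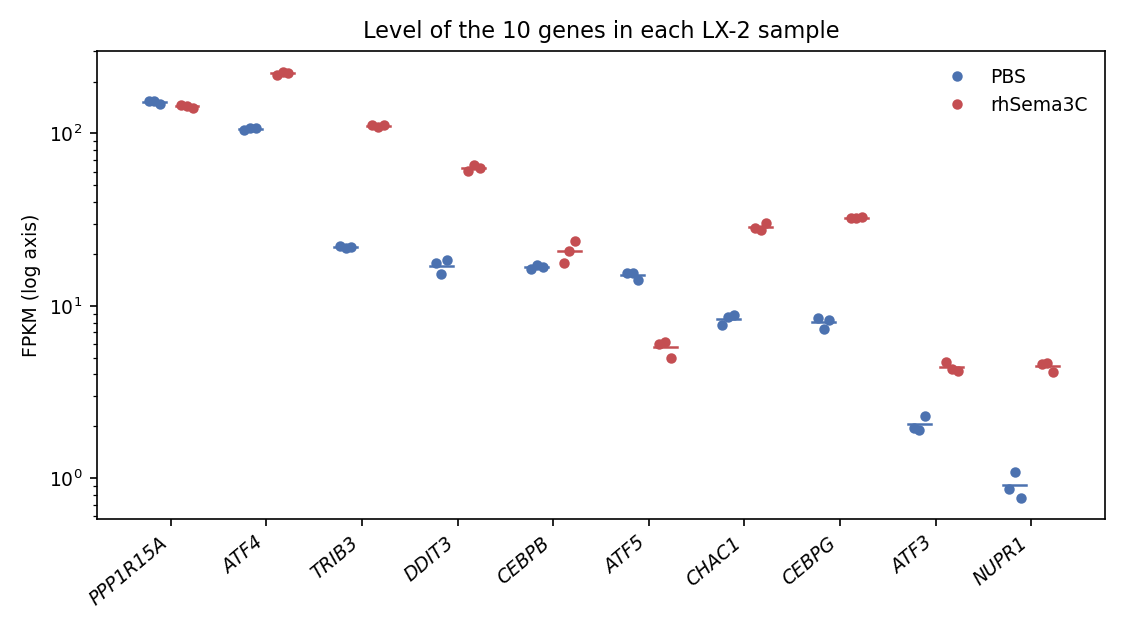
FPKM (log axis) of the 10 genes in each LX-2 sample, with PBS samples in blue, rhSema3C samples in red and a bar at the mean of 3 samples; genes are ordered by their mean in PBS. On this scale the groups stand apart in all 10 genes, in CEBPB narrowly (17.2 against 17.6), and ATF5 and PPP1R15A lie lower with rhSema3C, PPP1R15A not so on values rescaled to TPM.

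Among all 14178 genes tested, 62.3% had an adjusted p below 0.05 (edgeR, quasi-likelihood), 31.7% higher and 30.6% lower with rhSema3C, so that a call alone says little in these data. With a fold change above 2 as well, 5.37% were called, 3.31% higher and 2.06% lower. Of the 10 genes, 7 were called higher and 2 lower, and with the fold threshold 6 were higher and 1 was lower, counts that follow from how the genes were chosen. With library size alone, and with limma on log2(FPKM + 1), log2(FPKM + 0.1) or log2(TPM + 1), 8 were called higher and 1 lower, and without rhSema3C replicate 1, 8 and 2. In CPM, the groups did not overlap in 9 of the 10 genes, beside 67.8% of all genes tested. The median log2 difference of the 10 genes was 1.33, beside 0.02 over all genes tested. With scaling by library size alone, the genes called higher made up 62.3% of all calls in place of 50.9%, and the median of all genes moved to 0.13. With limma on values rescaled to TPM these were 74.1% and 0.23. Relative to the median of all genes, the median of the 10 genes was 1.31, 1.31 and 1.30 under TMM, library size and TPM.

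ATF4 (ENSG00000128272, chr22:39519672-39522683 as in the table), the central factor of the network, had CPM values of 326.4, 337.1 and 331.0 in the PBS samples and 635.4, 657.4 and 648.3 in the rhSema3C samples. Every rhSema3C sample was far above every PBS sample, and the replicates lay within a few percent of each other. The log2 difference was 0.96 with a standard error (SE) of 0.04, a fold of 1.95. Among the genes tested, ATF4 stood above 97.7% in PBS and 99.1% with rhSema3C. Its pseudogenes ATF4P1 to ATF4P4 each held at most 0.121% as many counts as ATF4.

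ATF5 (ENSG00000169136, chr19:49928702-49933935) is the closest relative of ATF4 and is itself translated under stress through upstream reading frames. It went the other way. Its CPM was 47.6, 47.9 and 43.6 in PBS and 17.4, 17.8 and 14.4 with rhSema3C, with no overlap. The log2 difference was -1.49 (SE 0.09), a fold of 0.356, and its place among the genes tested went from above 78.1% of them to above 53.5%. The FPKM of ATF5 relative to ATF4 was 0.147, 0.143 and 0.133 in the PBS samples and 0.0275, 0.0272 and 0.0223 in the rhSema3C samples, so the pair moved far apart. This ratio does not depend on the scaling between samples.

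ATF5 shares 1062 bases with NUP62, a nuclear pore gene, and 838 bases with IL4I1, both on the other strand. NUP62 fell with a log2 difference of -0.49 (SE 0.05, adjusted p = 1.0e-05, edgeR quasi-likelihood), and IL4I1 had -0.02 (SE 0.07, adjusted p = 0.83). Whether the counting used strand is not given in the sources used here, so reads from the shared bases cannot be told apart. The microRNA gene MIR4751 inside ATF5 had 1 count in each sample.

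ATF3 (ENSG00000162772, chr1:212565334-212620772), an early stress factor that often acts as a repressor, was a low transcript. Its CPM was 8.48, 8.24 and 9.87 in PBS and 19.1, 17.3 and 16.8 with rhSema3C. All rhSema3C samples were above all PBS samples, with a log2 difference of 1.00 (SE 0.10). The fold of 2.0 sits on the threshold of 2, and in 7 of 14 alternative settings with all 10 genes in the test it fell below 2. These include leaving out PBS replicate 1, PBS replicate 2 or rhSema3C replicate 1, with log2 differences of 0.97, 0.95 and 0.94. ATF4, with 1.95, was below 2 in 10 of 15 settings.

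DDIT3 (ENSG00000175197, chr12:57516588-57521737) encodes CHOP, the bZIP factor linked to cell death under lasting stress. Its CPM was 24.7, 21.4 and 25.5 in PBS and 78.6, 85.2 and 81.6 with rhSema3C. The groups were well apart, with a log2 difference of 1.78 (SE 0.07), a fold of 3.43. Its place went from above 80.7% to above 95.8% of the genes tested. DDIT3 shares 982 bases with MARS1, the methionyl-tRNA synthetase gene, and 1028 bases with MBD6, both on the other strand. MARS1 rose by a log2 difference of 0.93 (SE 0.05, adjusted p = 3.6e-08, edgeR quasi-likelihood), and MBD6 had 0.09 (SE 0.08, adjusted p = 0.35). MIR616, which lies inside DDIT3 on the same strand, had 12 to 29 counts in a sample.

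The C/EBP members differed from each other. CEBPG (ENSG00000153879, chr19:33373685-33382686), a short partner of ATF4 without an activation domain of its own, had CPM values of 36.7, 32.0 and 35.7 in PBS and 130.1, 130.0 and 130.7 with rhSema3C. The 3 rhSema3C samples were nearly equal, and the log2 difference was 1.90 (SE 0.06), a fold of 3.74. CEBPB (ENSG00000172216, chr20:50190830-50192668), which takes part in inflammatory and acute phase transcription, had 32.2, 33.9 and 32.6 in PBS and 32.2, 38.1 and 43.2 with rhSema3C. Its groups overlapped, since rhSema3C replicate 1 lay within the PBS range, while on the FPKM scale the highest PBS sample had 17.2 and the lowest rhSema3C sample 17.6. Its log2 difference of 0.20 (SE 0.09) became 0.10 without rhSema3C replicate 3 and 0.30 without rhSema3C replicate 1, and was 0.31 with library size alone and 0.42 on values rescaled to TPM. CEBPB-AS1, on the other strand, held 22 to 45 counts in a sample beside 2144 to 3602 for CEBPB.

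The balance among these bZIP transcripts shifted accordingly. CEBPG over CEBPB, as a ratio of FPKM, was 0.517, 0.428 and 0.497 in PBS and 1.83, 1.55 and 1.37 with rhSema3C, so the more abundant of the pair changed. CEBPB over DDIT3 was 0.927, 1.13 and 0.911 in PBS and 0.292, 0.318 and 0.377 with rhSema3C. DDIT3 over CEBPG was 2.09, 2.07 and 2.21 in PBS and 1.87, 2.03 and 1.94 with rhSema3C. This last ratio moved little, from 2.12 ± 0.0761 to 1.95 ± 0.0797 (SD, n = 3), though its groups did not overlap.

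**Figure D2:**
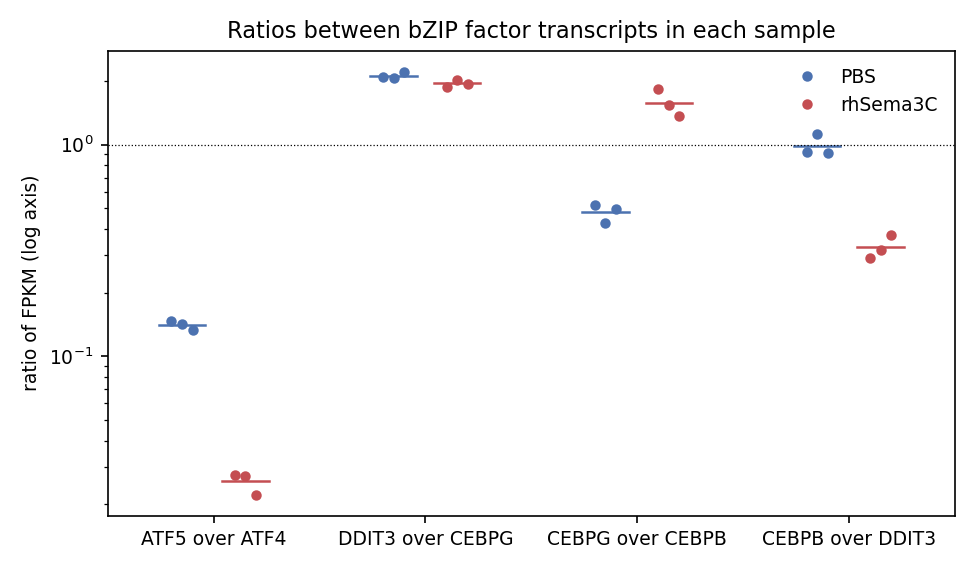
Ratio of FPKM (log axis) between pairs of bZIP factor transcripts in each sample, with PBS in blue, rhSema3C in red, a bar at the mean of 3 samples and a dotted line at equal levels. ATF5 over ATF4 goes from 0.141 ± 0.00735 to 0.0257 ± 0.00296 (SD), and CEBPG over CEBPB crosses the line, while DDIT3 over CEBPG stays near 2.

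TRIB3 (ENSG00000101255, chr20:362835-397559) encodes a pseudokinase that binds ATF4 and AKT and curbs ATF4's activity. It had the largest difference of the 10 genes in the main test. NUPR1 was larger without PBS replicate 2 (2.34 against 2.23) and without rhSema3C replicate 3 (2.25 against 2.24). The CPM of TRIB3 was 71.5, 70.2 and 70.8 in PBS and 339.2, 328.4 and 335.4 with rhSema3C, with very close replicates. The log2 difference was 2.24 (SE 0.04), a fold of 4.72, and its place went from above 85.0% to above 97.8% of the genes tested.

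NUPR1 (ENSG00000176046, chr16:28532708-28538974) encodes a small stress-induced chromatin protein. It was the lowest of the 10 genes in PBS, with 297 to 448 counts in a sample and CPM values of 5.10, 6.43 and 4.52. With rhSema3C it had 1867 to 2342 counts and CPM values of 25.2, 25.6 and 22.4. The difference of 2.19 (SE 0.13, log2) was close to that of TRIB3 but with the widest spread of the 10 genes, and it was 1.52 with limma on log2(FPKM + 1), a scale that understates the change of low genes.

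PPP1R15A (ENSG00000087074, chr19:48872421-48876058) encodes GADD34, the stress-induced subunit that brings a phosphatase to eIF2 alpha and so ends the response. Unlike TRIB3, the other feedback gene, it was not higher. Its CPM was 503.0, 504.8 and 485.1 in PBS and 449.3, 440.5 and 425.3 with rhSema3C. The groups did not overlap on this scale, and the log2 difference was -0.18 (SE 0.04). Its sign depended on the scaling, with -0.07 by library size alone and 0.04 on values rescaled to TPM. Relative to the median of all genes the 3 scalings gave -0.21, -0.21 and -0.18.

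CHAC1 (ENSG00000128965, chr15:40952962-40956512) encodes an enzyme that splits glutathione and is induced through ATF4 and ATF3. Its CPM was 16.9, 19.0 and 19.4 in PBS and 57.9, 56.1 and 61.6 with rhSema3C. The groups were far apart, with a log2 difference of 1.67 (SE 0.07), a fold of 3.18. Its FPKM stood above 65.1% of the genes tested in PBS and above 89.2% with rhSema3C.

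**Figure D3:**
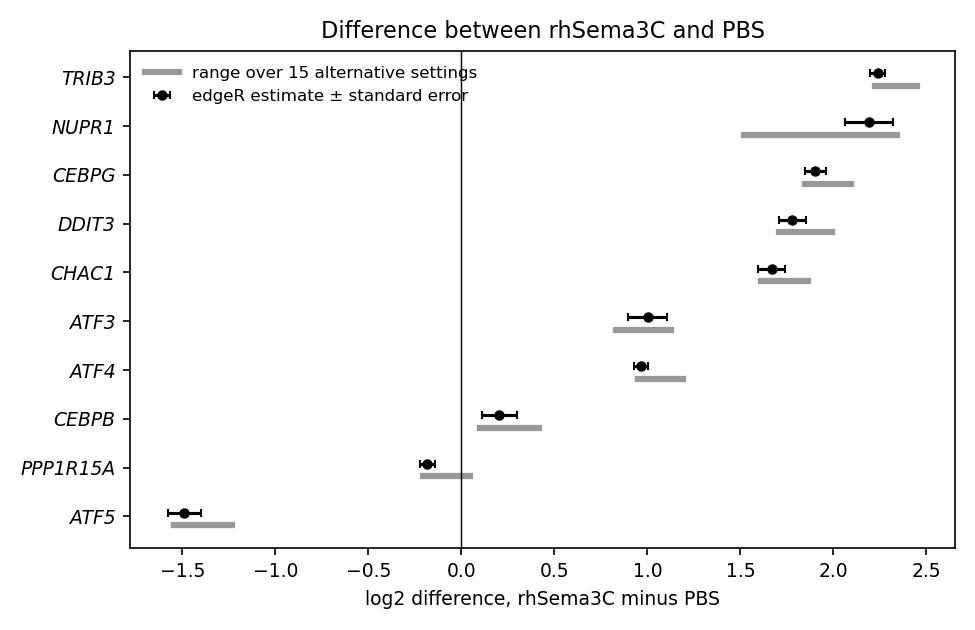
Log2 difference, rhSema3C minus PBS, of the 10 genes, with black points and whiskers for the edgeR estimate ± SE and grey bars for the range over the 15 alternative settings in which the gene was tested. TRIB3 (2.24) and NUPR1 (2.19) lie highest and ATF5 (-1.49) lowest, and the bar of PPP1R15A is the only one that crosses 0.

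The genes most like ATF4 and ATF5 were sought among 6846 other named genes of mean FPKM 5 or more, by the root mean square difference of their centred log2 CPM over the 6 samples. Nearest to ATF4 were HSPA9, a mitochondrial chaperone (0.0238 log2 units), CALCOCO2, an autophagy receptor (0.0268), and EDA2R, a receptor of the TNF family (0.0343), whose log2 differences were 0.94, 0.93 and 0.95. Nearest to ATF5 were FOXD1, a forkhead factor (0.0797), H2AC13, a histone H2A gene (0.0945), and MYL9, a myosin light chain of contractile cells (0.105). Their log2 differences were -1.40, -1.46 and -1.46. H2AC13 was low, with a mean CPM of 3.98 in PBS and 1.45 with rhSema3C, and an SE of 0.19. Since the samples form only a PBS and an rhSema3C group, nearness here largely reflects a like log2 difference.

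The other genes of the pathway were read from 10 lists with 127 genes tested, none of them one of the 10 above. Over the lists, 74 genes were higher (58.3%), 28 lower (22.0%) and 25 were not called at an adjusted p of 0.05 (edgeR, quasi-likelihood), and the median log2 difference was 0.28. Of all genes tested, 31.7% were higher and 30.6% lower, and the counts of each list below are to be read beside these shares. With a fold change above 2, 25 were higher (19.7%) and 0 lower, beside 3.31% and 2.06% of all genes tested. These counts include INHBE and KDM7A, which entered the test only through the rhSema3C samples. Without them, 72 of 125 genes were higher, 23 of them beyond a fold of 2, and the median was 0.28. On values rescaled to TPM, 12 were lower at an adjusted p of 0.05.

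Upstream of ATF4, the log2 differences of the kinases and their regulators ran from -0.24 to 0.83. Of 9 eIF2 alpha kinases and their regulators, 5 were higher and 1 lower, with a median log2 difference of 0.23 and none beyond a fold of 2. With library size alone 7 were higher and 1 lower, and on values rescaled to TPM 8 were higher and 0 lower. EIF2AK3, which encodes the endoplasmic reticulum kinase PERK, rose from a CPM of 14.4, 12.1 and 14.5 to 22.8, 23.0 and 21.5, a log2 difference of 0.72 (SE 0.09, adjusted p = 4.8e-05, edgeR). The other kinases were closer to no difference, with EIF2AK2 (PKR) at a log2 difference of 0.23 (adjusted p = 0.0023, edgeR), EIF2AK4 (GCN2) at 0.06 (adjusted p = 0.30) and EIF2AK1 (HRI) at 0.03 (adjusted p = 0.53). PRKRA, which activates PKR, rose by a log2 difference of 0.83 (1.02 on values rescaled to TPM, beyond a fold of 2), and among the regulators of GCN2 its inhibitor IMPACT rose by 0.57 while its helper GCN1 fell, with -0.24. GCN1 had a log2 difference of -0.01 (adjusted p = 0.87, limma) on values rescaled to TPM.

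Of 10 subunits of eIF2 and its exchange factor eIF2B with related initiation factors, 5 were higher and 4 lower. All 3 eIF2 subunits were higher. EIF2S2, the beta subunit of eIF2, rose most, by a log2 difference of 0.85 (SE 0.06, adjusted p = 4.6e-07, edgeR), and EIF2S3 and EIF2S1 rose by 0.28 and 0.21. EIF2B5, the catalytic subunit of eIF2B, fell, with a log2 difference of -0.32 (SE 0.05, adjusted p = 0.00011, edgeR), and the falls of the eIF2B subunits did not pass on values rescaled to TPM, where 6 genes of the list were higher and 0 lower.

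Around PPP1R15A, the phosphatase genes were mixed. PPP1R15B, which encodes the constitutive counterpart of PPP1R15A, had a log2 difference of 0.11 (SE 0.06, adjusted p = 0.13, edgeR), and its groups overlapped. Of the catalytic subunits of protein phosphatase 1, PPP1CA fell from a CPM of 515.9, 533.2 and 522.9 to 330.4, 338.1 and 323.9 (log2 -0.66, SE 0.04, adjusted p = 1.2e-07, edgeR). PPP1CB rose by a log2 difference of 0.44 (adjusted p = 0.00011, edgeR), and PPP1CC had 0.04 (adjusted p = 0.40). In all, 2 of the 7 genes on this list were higher, 2 lower (28.6% each) and 3 did not pass. The shares over all genes tested were 31.7% and 30.6%. With library size alone 4 were higher and 1 lower.

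Of 11 paralogs of the 10 genes, 5 were higher and 2 lower, none beyond a fold of 2, and the median log2 difference was 0.17. JDP2, a repressor that binds the same sites as the ATF factors, rose by a log2 difference of 0.74, CEBPD by 0.64 and ATF6, the membrane-bound sensor of unfolded proteins, by 0.54. ATF6B fell, with a log2 difference of -0.52, and of the TRIB3 paralogs TRIB1 fell, with -0.48, while TRIB2 had -0.01 (adjusted p = 0.93, edgeR). CHAC2, the paralog of CHAC1, had a log2 difference of -0.18 (adjusted p = 0.29, edgeR).

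Among 19 other bZIP and stress factors, 11 were higher and 5 lower. NFIL3, a bZIP repressor, rose from an FPKM of 7.43 ± 0.473 to 24.7 ± 0.731 (SD, n = 3), a log2 difference of 1.63 (SE 0.07, adjusted p = 1.2e-08, edgeR). XBP1, the factor spliced by IRE1 during the unfolded protein response, rose from 19.6 ± 1.07 to 51.1 ± 1.17 (log2 1.28, SE 0.05, adjusted p = 7.1e-09, edgeR), and the gene table does not separate its spliced form. CREBRF, which limits CREB3, rose by a log2 difference of 1.04 (0.65 on log2(FPKM + 1)), and CREB3 fell, with -0.84 (adjusted p = 4.1e-07, edgeR). NFE2L1, which drives proteasome genes, rose by a log2 difference of 0.95, and the small Maf gene MAFK fell, with -0.56.

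Of the 25 list genes beyond a fold of 2, 10 and 11 were in the lists of known targets. Of 21 targets in amino acid supply and redox balance, 18 were higher, 2 lower and 1 did not pass, with a median log2 difference of 0.99, and 10 were beyond a fold of 2. ALDH1L2, a mitochondrial folate enzyme, rose by a log2 difference of 2.82 (SE 0.08, adjusted p = 8.9e-10, edgeR) from an FPKM of 0.572 to 4.36 (1.77 on log2(FPKM + 1)), and MTHFD2, of the same pathway, rose by 1.77 in counts. The arginine transporter SLC7A1 and the proline enzyme ALDH18A1 fell, with log2 differences of -0.26 and -0.31, neither passing on values rescaled to TPM. Of 17 targets in growth control and secretion, 15 were higher, 1 lower and 1 did not pass, with a median log2 difference of 1.42, and 11 were beyond a fold of 2. NDRG1 rose by a log2 difference of 2.45. INHBE, an activin subunit, and the histone demethylase gene KDM7A had mean FPKM values of 0.216 and 0.238 in PBS and 1.83 and 1.15 with rhSema3C, so they entered the test only through the rhSema3C samples. Without these 2 genes, 13 of 15 targets were higher, with a median log2 difference of 1.28, and 9 were beyond a fold of 2. The CPM of INHBE was 0.596, 0.761 and 0.760 in PBS and 5.59, 5.27 and 5.79 with rhSema3C. Its log2 difference was 2.98 in counts and 1.22 on log2(FPKM + 1), and that of KDM7A was 2.17 and 0.79, given as values without a test. The target lists were written with results of these data known, and their rise is no independent support for that of ATF4.

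**Figure D4:**
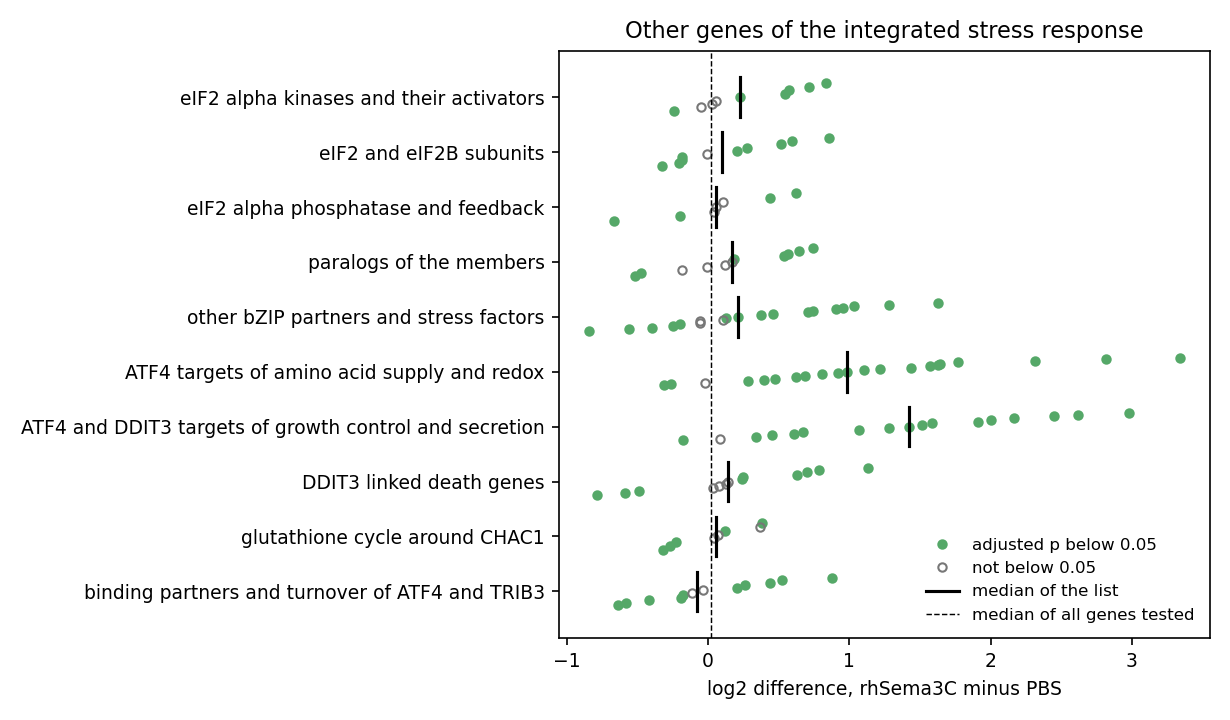
Log2 difference, rhSema3C minus PBS, of each gene of the 10 pathway lists, with filled points for an adjusted p below 0.05 (edgeR), open points for the rest, a black bar at the median of each list and a dashed line at the median of all genes tested (0.02). The 2 lists of targets reach medians of 0.99 and 1.42, while the medians of the other 8 lists lie between -0.07 and 0.23. INHBE and KDM7A, which entered the test only through the rhSema3C samples, are drawn as filled points, and without them the 1.42 becomes 1.28.

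Of 13 death genes linked to DDIT3, 6 were higher (46.2%), 3 lower (23.1%) and 4 did not pass, with a median log2 difference of 0.14. The shares over all genes tested were 31.7% and 30.6%. BBC3 and PMAIP1, which encode the pro-death proteins PUMA and NOXA, rose by a log2 difference of 1.13 (SE 0.09, adjusted p = 1.4e-06, edgeR) and 0.79 (SE 0.06, adjusted p = 1.2e-06, edgeR). BCL2 and BCL2L1, which encode survival proteins, fell, with log2 differences of -0.79 (SE 0.14, adjusted p = 0.00047, edgeR) and -0.49 (SE 0.04, adjusted p = 2.3e-06, edgeR). BCL2 was low, with a mean FPKM of 0.868 in PBS and 0.540 with rhSema3C, and had -0.28 on log2(FPKM + 1). Among those that did not pass, MCL1 had a log2 difference of 0.04 (adjusted p = 0.46, edgeR) and BCL2L11 0.13 (adjusted p = 0.27, edgeR). GADD45A rose by a log2 difference of 0.63 and its relative GADD45B fell, with -0.59.

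Around CHAC1, 8 genes of the glutathione cycle were tested, with a median log2 difference of 0.06. Of these, 2 were higher (25.0%), 3 lower (37.5%) and 3 did not pass, beside 31.7% higher and 30.6% lower of all genes tested. GCLC, the catalytic subunit of the enzyme that starts glutathione synthesis, rose by a log2 difference of 0.39 (SE 0.07, adjusted p = 0.00056, edgeR). GSR, which reduces oxidised glutathione, and the peroxidase GPX4 fell, with log2 differences of -0.32 and -0.27, falls that did not pass on values rescaled to TPM.

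Of 12 binding partners and turnover genes of ATF4 and TRIB3, 5 were higher, 5 lower (41.7% each) and 2 did not pass. The shares over all genes tested were 31.7% and 30.6%. The median of -0.07 became 0.03 with library size alone and 0.15 on values rescaled to TPM. SIAH2, a ubiquitin ligase of stressed cells, rose by a log2 difference of 0.88 (SE 0.08, adjusted p = 2.8e-06, edgeR). AKT1 and AKT2, the kinases bound by TRIB3, fell, with log2 differences of -0.58 (SE 0.05, adjusted p = 1.6e-06, edgeR) and -0.64 (SE 0.04, adjusted p = 3.2e-07, edgeR), and SQSTM1, which encodes the autophagy receptor p62, fell with -0.42.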

How the data were processed

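RNA from 3 rhSema3C-treated and 3 PBS-treated LX-2 samples was sequenced by the authors on an Illumina NovaSeq instrument from mRNA libraries. The authors deposited, per gene and sample, whole-number counts, not normalised, and FPKM values scaled to transcript length and library size. The study's methods name Cufflinks and cuffmerge. The aligner, strand setting and genome build are not given in the sources used here, and the coordinates lie on GRCh38. The files hold no molecular identifiers. The table also pairs genes with annotation columns, and 0 columns of sample values were left unused.

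Genes whose mean FPKM reached 0.5 were tested with edgeR 4.0.16 (R 4.3.3) by glmQLFit and glmQLFTest with TMM factors and Benjamini-Hochberg adjustment over 14178 genes. CPM was computed from the counts and TMM factors. Alternatives used DESeq2 1.42.0, limma 3.58.1 on log2 values computed from the deposited FPKM with pseudocounts of 1 and 0.1 or from TPM, other scalings and filters, the replicate number as a block, and fits without 1 sample in turn. The test was tried on simulated counts.

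The 10 genes and the pathway lists were chosen with earlier results of these data known. From each list, up to 4 of the largest rises and 3 of the largest falls past an adjusted p of 0.05 were open to being named, as were kinases, phosphatase subunits and paralogs, genes overlapping one of the 10, and the 3 genes nearest in profile to ATF4 and to ATF5. EIF2S1, MCL1 and BCL2L11, outside this rule, were named after their values were seen. Upstream ATGs were counted in the best-ranked APPRIS transcripts of GENCODE, and 32887 of the 33900 gene IDs were found there.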

Additional observations from a re-analysis of the deposited data

How the results depend on the processing

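With limma on log2(FPKM + 1), log2(FPKM + 0.1) and log2(TPM + 1), the genes called higher at an adjusted p of 0.05 made up 61.3%, 61.2% and 74.1% of all calls, beside 50.9% in the main test. The counts with a fold above 2 (469 higher, 292 lower) became 172 and 74 on log2(FPKM + 1), 786 higher with no filter on low genes, and 166 and 70 when only genes of mean FPKM 5 or more were tested. The lower count was 179 on log2(FPKM + 0.1) and 92 on TPM. At an adjusted p alone (4490 higher, 4339 lower), TPM gave 6934 and 2428, and the filter at 5 gave 2630 and 2602. Genes of the lists called lower went from 28 to 12 on TPM. The median of the 10 genes was 1.44 with library size alone and 1.53 on TPM, and 1.29 to 1.40 with each sample left out. It has no value with the filter at 5, where ATF3 and NUPR1 were not in the test. On TPM the sign turned for PPP1R15A (0.0441), EIF2B1 (0.0432), EIF2B2 (0.0226), NCK2 (0.0293), JMJD6 (0.0474) and GSS (0.0023). The median of all genes was 0.23 on TPM, and the cause of these changes was not tested further. Single values under the alternatives were tallied for the 10 genes and the largest rises and falls of each list, not for every gene named. Of these values, 933 kept direction and call or stayed within the replicate spread, 48 kept direction but lost the call, and 31 moved by more than the spread. Same-numbered samples shared only a number, with correlations of their deviations of -0.00414, 0.0581 and -0.0274 over 14178 genes, and not every sample correlated best with its own number. The replicate block gave 4221 higher and 4120 lower, and 481 and 297 with a fold above 2. The lowest of the 10 genes, NUPR1, had at least 297 counts in a sample.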
